A study of Homo sapiens with 12 samples.

Results

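RNA-seq of LNCaP cells was used to compare the transcriptomes left by a pair of siRNAs against SMARCA4, the gene that encodes the chromatin remodeller BRG1. LNCaP is an androgen-responsive line grown from a prostate cancer metastasis. Of the 12 libraries in the series, 8 came from cells given one of these siRNAs, with 4 libraries for each siRNA (2 at 72 h and 2 at 144 h after the first transfection). The other 4 libraries came from cells given si-NT, a non-targeting pool, at the same time points (2 each), and served to show which siRNA moved a gene away from control. They also entered the estimate of the spread in the comparisons made within a time point. Cells collected at 144 h had been split and transfected again at 72 h, in the si-NT arm as well. Members were chosen by the names of the value columns, siRNA 3 against siRNA 2. The sample labels number the siRNAs 1 and 2, and 1 library at 72 h carries both numbers in its labels, so which reagent is siRNA 2 and which is siRNA 3 is not known and the numbers of the table are used here. The labels do not say whether the libraries came from separate cultures, and p-values therefore measure the spread between these libraries, which may be technical.

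BRG1 is the ATPase of SWI/SNF complexes, which slide and evict nucleosomes so that transcription factors and RNA polymerase can reach DNA. An siRNA loads 1 strand into Argonaute, which cuts the mRNA it matches along its full length. The same loaded strand can also lower other mRNAs, much as a microRNA does, by pairing a short stretch near its 5' end with sites that lie mostly in 3' untranslated regions (3' UTRs). For that reason a pair of siRNAs with different sequences is commonly set side by side: effects of the lost target should be shared, and effects of each sequence should not.

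Every library carried the luminal prostate markers of LNCaP. The summed level of KLK3, KLK2, FOLH1, TMPRSS2, HOXB13, KRT8 and KRT18 lay between 1622 and 2493 TPM with siRNA 2 and between 1685 and 2219 TPM with siRNA 3, whereas the basal markers KRT5, KRT14 and TP63 together did not exceed 0.38 TPM in any library. TPM, a length-corrected share of all transcripts in a library, keep no read depth and leave the counting error unknown. ERCC spike-in RNA made up 0.805% to 1.97% of TPM, and 14706 to 15355 genes reached 1 TPM per library. In such bulk RNA, fewer cells of a type and less RNA per cell cannot be told apart.

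SMARCA4 itself was depleted to a like degree by both siRNAs. Its level was 97.0 and 73.4 TPM in si-NT cells at 72 h, and 94.5 and 106.6 TPM at 144 h. With siRNA 2 it was 21.7 and 19.02 TPM at 72 h and 15.9 and 16.2 TPM at 144 h, and with siRNA 3 it was 17.5 and 19.1 TPM at 72 h and 11.4 and 17.4 TPM at 144 h. All 8 knockdown libraries lay below all 4 si-NT libraries, and the libraries of the siRNAs overlapped each other. The mean was 19.6% of si-NT with siRNA 2 and 17.6% with siRNA 3. The difference of siRNA 3 minus siRNA 2 was -0.16 ± 0.12 (SE) on the log2(TPM + 1) scale, with a 95% interval of -0.44 to 0.13 (limma, adjusted p = 0.563; two-sided exact permutation p = 0.389). SMARCA2, which encodes the alternative ATPase BRM, differed by 0.04 with an interval of -0.21 to 0.29.

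Across the transcriptome, 111 of 16337 genes tested (0.679%) differed between the siRNAs at an adjusted p under 0.05 in a limma fit over the 8 libraries with time as a block, on log2(TPM + 1). Of these, 72 (0.441%) were higher and 39 (0.239%) lower with siRNA 3. The median absolute difference of these genes was 0.70 on the log2 scale, and 8 were higher and 6 lower by at least 1. Protein-coding genes made up 100 of the 111. Of the 111, 6 have values identical to another identifier in every library, such as BCL7B and an unnamed copy. Such identifiers receive the same call, so the 111 hold some values more than once. At an unadjusted p under 0.05, 1022 genes were higher and 1728 lower, and the median difference of all tested genes was -0.04. Each of the 111 genes, chosen on the same values, had non-overlapping siRNA 2 and siRNA 3 libraries at both time points, a separation that 6.23% of tested genes showed upwards and 9.75% downwards. The count depended on single libraries. It was 201, 69, 15 and 30 without the first and second siRNA 2 library at 72 h and at 144 h, and 45, 14, 33 and 39 without the corresponding siRNA 3 libraries.

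Set against si-NT in a fit over all 12 libraries, 4091 genes (25.0%) differed with siRNA 2, 16.1% higher and 8.89% lower, and 2942 (18.0%) with siRNA 3, 10.7% higher and 7.33% lower. Both comparisons use the same 4 si-NT libraries. A gene was assigned to 1 siRNA only when it was called against si-NT with that siRNA and had an unadjusted p of at least 0.05 with the other. Among the 111 genes that differed between the siRNAs, 49 departed from si-NT with siRNA 2 only, and 18 with siRNA 3 only. A further 16 departed with both siRNAs in the same direction but by unequal amounts, 9 departed in opposite directions, and 19 fell in none of these classes. The most populated class held 35 genes that siRNA 2 lowered and siRNA 3 left within the threshold, followed by 14 that only siRNA 2 raised. With siRNA 3 only, 9 were raised and 9 lowered. Without the first and second siRNA 2 library at 72 h and at 144 h, the class of siRNA 2 only held 81, 22, 8 and 11 genes and that of siRNA 3 only 32, 15, 2 and 5. Without the corresponding siRNA 3 libraries they held 14, 9, 11 and 14 genes and 10, 0, 3 and 6 genes.

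**Figure D1:**
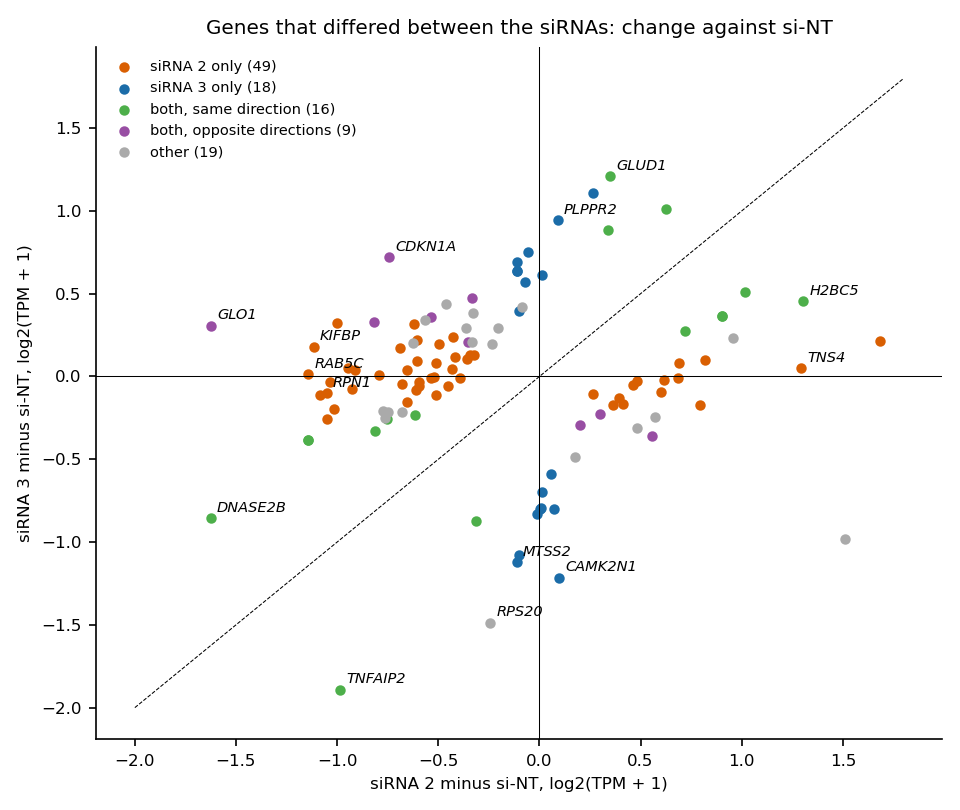
Each point is 1 of the 111 genes that differed between the siRNAs, placed by its log2(TPM + 1) difference from si-NT with siRNA 2 (horizontal axis) and with siRNA 3 (vertical axis), coloured by class, with the dashed line marking equal change. Both axes share the 4 si-NT libraries. The 35 genes lowered by siRNA 2 only lie left of the vertical line and near the horizontal line, while CAMK2N1, MTSS2 and RPS20 lie near the vertical line and well below zero.

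The genes with the largest excess in siRNA 3 cells were mostly genes that siRNA 2 had lowered. GLO1, the glyoxalase that detoxifies methylglyoxal, was 191 and 152 TPM in si-NT cells at 72 h and 184 and 203 TPM at 144 h. It was 56.7 and 58.0 TPM at 72 h and 54.6 and 63.7 TPM at 144 h with siRNA 2, and 206 and 216 TPM and then 235 and 243 TPM with siRNA 3. The 4 siRNA 2 libraries lay far below the other 8, and the siRNA 3 libraries lay above all 4 si-NT libraries. The mean GLO1 level was 31.9% of si-NT with siRNA 2 and 123% with siRNA 3, a difference of 1.93 ± 0.07 (SE, n = 4 against 4; limma, adjusted p = 2.35e-05).

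KIFBP, which encodes a kinesin-binding protein, showed the same arrangement on a lower scale. It was 13.9 and 16.3 TPM at 72 h and 17.0 and 17.3 TPM at 144 h with siRNA 2, against 39.9, 39.4, 41.0 and 43.3 TPM with siRNA 3 and 31.2 to 40.1 TPM in si-NT cells. The siRNA 3 libraries overlapped or exceeded those of si-NT and none of them came near siRNA 2 (difference 1.30, adjusted p = 0.000309). RAB5C, a GTPase of early endosomes, was 61.8, 69.0, 67.4 and 73.5 TPM with siRNA 2, 148, 143, 157 and 164 TPM with siRNA 3, and 142 to 160 TPM in si-NT cells. RPN1, a subunit of the oligosaccharyltransferase that glycosylates proteins in the endoplasmic reticulum, was 83.4, 86.1, 82.7 and 86.7 TPM with siRNA 2, 171, 166, 159 and 165 TPM with siRNA 3, and 174 to 183 TPM in si-NT cells. For RAB5C the siRNA 3 and si-NT ranges overlapped, and for RPN1 the siRNA 3 libraries lay slightly below all 4 si-NT libraries. Each gene differed between the siRNAs with an adjusted p of 0.000309 (1.16 and 0.95 on the log2 scale).

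Other genes of this kind were RCN2, a calcium-binding protein of the secretory pathway (0.97), GYG1, the glycogenin that primes glycogen synthesis (0.95), IER3IP1, a small protein of the endoplasmic reticulum (1.00), and C8orf33 (1.00). Their mean levels with siRNA 2 were 46.5% to 52.0% of si-NT, and with siRNA 3 they were 92.3% to 104%. COMMD5 was lowered by siRNA 2 (-0.82 against si-NT) and slightly raised by siRNA 3 (0.33), and the tetraspanin TSPAN8 fell with siRNA 2 from a low level, 1.17 ± 0.80 TPM (SD, n = 4) against 3.29 ± 1.27 TPM in si-NT cells. COQ5, a methyltransferase of coenzyme Q synthesis chosen after its values were seen, was 29.96 to 36.5 TPM with siRNA 2 and 55.6 to 65.8 TPM with siRNA 3 (0.85, adjusted p = 0.00112). The nuclease AEN (0.81, 56.2% of si-NT with siRNA 2), the death receptor FAS (0.82, 35.9%), SPATA18 (0.70, 60.7%) and the sestrin SESN1 (0.59, 69.0%), also chosen after their values were seen, were lowered by siRNA 2 only. RPS27L, a relative of a ribosomal protein, was 156 ± 23.8 TPM with siRNA 2 and 294 ± 34.3 TPM with siRNA 3 (0.91).

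**Figure D2:**
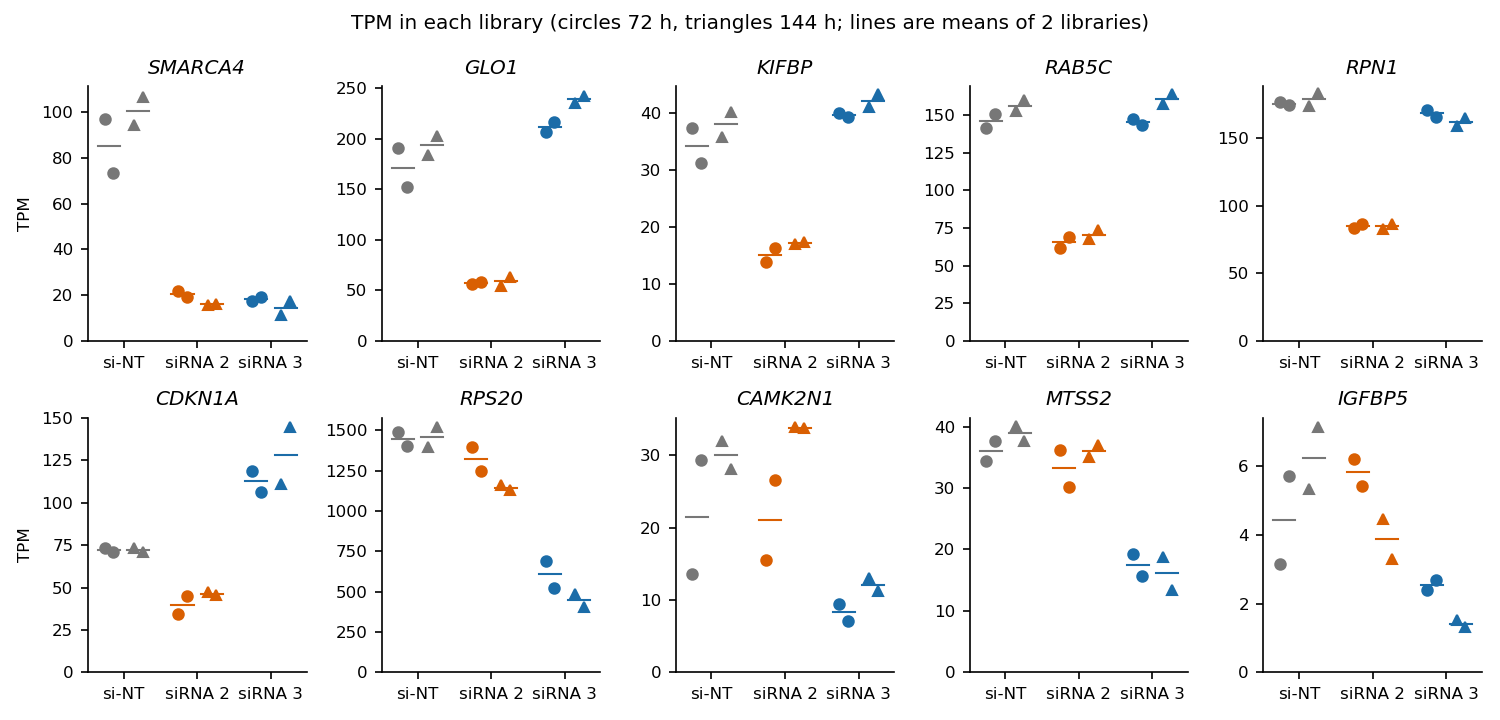
TPM of 10 genes in each of the 12 libraries (vertical axes, linear, starting at 0), with si-NT in grey, siRNA 2 in orange and siRNA 3 in blue, circles for 72 h, triangles for 144 h and a line at the mean of 2 libraries. SMARCA4 is low with both siRNAs, GLO1, KIFBP, RAB5C and RPN1 are low with siRNA 2 only, CDKN1A lies below si-NT with siRNA 2 and above it with siRNA 3, and RPS20, CAMK2N1, MTSS2 and IGFBP5 are lowest with siRNA 3.

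A short sequence was more frequent in the 3' UTRs of genes higher with siRNA 3 than in those of all genes. All 6-base words held by at least 500 genes were ranked by the difference in siRNA 3 minus siRNA 2 between genes whose 3' UTR holds the word and genes whose 3' UTR does not, adjusted for 3' UTR length and GC content, on the sense strand of the MANE Select transcript of 11797 tested genes (11768 with a 3' UTR long enough). GTGAGT ranked 1 of 3933 words. The 3297 genes that hold it (28.0%) lay 0.0568 higher on the log2 scale than the others. The words ranked 2 and 4, TGAGTG and GAGTGA, overlap it. The ranking was made on these values, so the rank is a description and carries no test. The windows below, 30 bases of GRCh37 each with GTGAGT in capitals, are printed as 3' UTR copies from genes that siRNA 2 lowered and siRNA 3 did not, together with the single copy in the coding sequence of SMARCA4. They are read 5' to 3' on the mRNA strand. SMARCA4 has 4944 coding bases. Of the tested genes with coding sequences of 2496 bases or more, 910 hold GTGAGT there and 1451 do not.
SMARCA4 coding, chr19:11170816-11170845, plus strand: gccaagccggtcGTGAGTgacgatgacagt
GLO1 3' UTR, chr6:38643763-38643792, minus strand: aaatggatttatGTGAGTgctttaaacaaa
GLO1 3' UTR, chr6:38644209-38644238, minus strand: taaaaaccttcaGTGAGTttgaccattgtg
RAB5C 3' UTR, chr17:40277626-40277655, minus strand: tcataggccggaGTGAGTcattccacctgc
RPN1 3' UTR, chr3:128338871-128338900, minus strand: tttgggtattgtGTGAGTgcatgtgttttt
RPN1 3' UTR, chr3:128339082-128339111, minus strand: gcgtcaggcagtGTGAGTttgccgtttgtc
IER3IP1 3' UTR, chr18:44682139-44682168, minus strand: cttagccatgatGTGAGTggttatccctag

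GTGAGT stood in the 3' UTR of 43 of the 64 genes called higher with siRNA 3 that have a transcript (67.2%), in 9 of the 35 called lower (25.7%) and in 27.9% of all genes. In the class lowered by siRNA 2 only, 25 of 31 genes held it (80.6%), but so did 6 of the 8 genes raised by siRNA 3 only (75%) and 4 of the 9 lowered by siRNA 3 only (44.4%). Of all genes higher with siRNA 3, 35 of the 50 called lower with siRNA 2 against si-NT held it (70%) and 8 of the other 14 (57.1%). The word was chosen on the difference that also called these genes, so its excess among them adds no support. It ranked 1 at 72 h (0.0506) and 1 at 144 h (0.0630). The word was chosen on the mean of these time points, so neither rank adds support. In coding sequences it ranked 1 of 4074 words after the adjustment (0.0290) and 19 before it (-0.00714). There it was held by 17.2% of the genes called higher and 17.7% of all genes, and its adjusted value against si-NT with siRNA 2 was -0.0108, rank 446 from the lowest. Against si-NT, genes with the word in the 3' UTR lay lower by an adjusted -0.0606 with siRNA 2, the lowest of all words, and by -0.00384 with siRNA 3, rank 1219 from the lowest. These values reuse the libraries on which the word was chosen. Among 7-base words the extended form GTGAGTG ranked 1 of 12510 (0.0738). The reverse complement ACTCAC ranked 2264 of 3933. When genes were split into 5 groups by 3' UTR length, the median difference was higher with the word than without it in each of the 5, for example 0.05 against -0.04 for 3' UTRs of 398 to 926 bases. The split uses the differences on which the word was chosen. Without adjustment, genes with 0, 1, 2 and 3 or more copies had median differences of -0.052, -0.0371, -0.0401 and -0.0276. In that order, 0.247%, 1.12%, 2.01% and 1.08% of them were called higher. The sequences of both siRNAs were not used here, so whether either holds a match to this word was not tested.

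Among the genes that siRNA 3 lowered against si-NT, the largest differences from siRNA 2 were those of RPS20, CAMK2N1, MTSS2 and IGFBP5. RPS20, a protein of the small ribosomal subunit, was 1490, 1404, 1398 and 1523 TPM in si-NT cells and 1393, 1246, 1158 and 1128 TPM with siRNA 2. With siRNA 3 it was 690 and 524 TPM at 72 h and 487 and 407 TPM at 144 h. The siRNA 3 libraries lay far below all 8 others, at a mean of 36.3% of si-NT against 84.7% with siRNA 2 (difference -1.24 ± 0.11 (SE); limma, adjusted p = 0.00279).

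CAMK2N1, an inhibitor of the calcium/calmodulin-dependent kinase CaMKII, was 9.51, 7.14, 13.0 and 11.2 TPM with siRNA 3, against 15.6, 26.6, 33.9 and 33.8 TPM with siRNA 2 and 13.6, 29.4, 32.0 and 28.1 TPM in si-NT cells. The siRNA 3 libraries were the lowest 4 of the 12, although the first si-NT library at 72 h was close to them (difference -1.31, adjusted p = 0.0159). MTSS2, which links membranes to actin, was 19.2, 15.8, 18.8 and 13.4 TPM with siRNA 3, 30.2 to 37.0 TPM with siRNA 2 and 34.4 to 40.1 TPM in si-NT cells, with no overlap (difference -1.01, adjusted p = 0.0159). IGFBP5, a secreted binding protein of insulin-like growth factors, fell to 37.0% of si-NT with siRNA 3 and stood at 90.8% with siRNA 2 (difference -0.98).

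EIF3F, a subunit of translation initiation factor 3, was 197, 153, 134 and 130.0 TPM with siRNA 3, 237 to 323 TPM with siRNA 2 and 254 to 296 TPM in si-NT cells. Its libraries with siRNA 3 were again below all others (-0.82, adjusted p = 0.0159). The forkhead factor FOXP4 (-0.87) and the lipid phosphatase PLPP2 (-0.81) were at 55.0% and 55.4% of si-NT with siRNA 3 and at 106% and 99.8% with siRNA 2. EMC6 (-0.80), the splicing-associated WBP11 (-0.71) and PDZRN3 (-0.64), named after their values were seen, completed the 9 genes that only siRNA 3 lowered. TNFAIP2, an NF-kB target, departed with both siRNAs, to 47.5% of si-NT with siRNA 2 and 21.5% with siRNA 3 (-0.91, adjusted p = 0.0275).

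A different word marked the genes that were lower with siRNA 3. After adjustment for the region's length and GC content, CGGAGA ranked 1 from the lowest in 3' UTRs (-0.0329, 1023 genes, 8.69%). It also ranked 1 from the lowest in coding sequences (-0.0317, 3599 genes, 30.5%). Both ranks were 1 at 72 h and at 144 h separately, but the word was chosen on the mean of the time points, so this adds no support. In coding sequences the 7-base form ACGGAGA ranked 1 from the lowest of 14771 words (-0.0582). Windows from MTSS2, IGFBP5, EIF3F and FOXP4, 4 of the genes lowered by siRNA 3 only, and the single copy in SMARCA4 are shown for comparison with the first set, with CGGAGA in capitals. RPS20 and CAMK2N1 hold no copy of CGGAGA in either region. IGFBP5, EIF3F and FOXP4 also hold the first word, GTGAGT, in the 3' UTR (2, 3 and 2 copies). Of the tested genes with coding sequences of 2496 bases or more, as in SMARCA4, 1232 hold CGGAGA there and 1129 do not.
SMARCA4 coding, chr19:11145777-11145806, plus strand: gcgactcactgaCGGAGAagcagtggctca
MTSS2 3' UTR, chr16:70695403-70695432, minus strand: tctcattttgtaCGGAGAaatattcttttc
MTSS2 coding, chr16:70712220-70712249, minus strand: tgctggaggagaCGGAGAagcaggccgtgc
IGFBP5 3' UTR, chr2:217539252-217539281, minus strand: ggcatgacacagCGGAGAccgcctccaaca
EIF3F 3' UTR, chr11:8022002-8022031, plus strand: agtagtacgttcCGGAGAcctgttgtgcag
FOXP4 coding, chr6:41555564-41555593, plus strand: cctgtacggacaCGGAGAgtgcaagtggcc

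Of the 35 genes called lower with siRNA 3 that have a transcript, 17 held CGGAGA in the coding sequence (48.6%) and 10 in the 3' UTR (28.6%). The shares were 17.2% and 10.9% of the 64 called higher, and 30.5% and 8.67% of all genes. These shares were not adjusted for length. The word was chosen on the difference that also called these genes, so no share among them adds support. The median coding length was 1128 bases in genes called lower, 973.5 in those called higher and 1407 in all genes. For 3' UTRs it was 1649, 1323 and 1305 bases. In the class lowered by siRNA 3 only, 7 of 9 genes held CGGAGA in either region, against 36.1% of all genes. The share was 62.5% of the 16 genes lower with siRNA 3 that siRNA 3 lowered against si-NT, and 57.9% of the 19 that it did not, with 43.8% and 52.6% in coding sequences. Against si-NT, genes with the word lay lowest of all words with siRNA 3 after the adjustment, at -0.0488 for 3' UTRs and -0.0348 for coding sequences. The adjusted values with siRNA 2 were -0.0160 and -0.00308. Before the adjustment, the values with siRNA 3 were -0.0302 (rank 897 from the lowest) and -0.0195 (rank 1715). Those with siRNA 2 were 0.0409 and 0.0511, above the genes without the word. The reverse complement TCTCCG ranked 2428 from the lowest in 3' UTRs. As for the first word, the ranking is a description of these libraries, a copy of the word is not shown to be a site of either siRNA, and that was not tested.

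**Figure D3:**
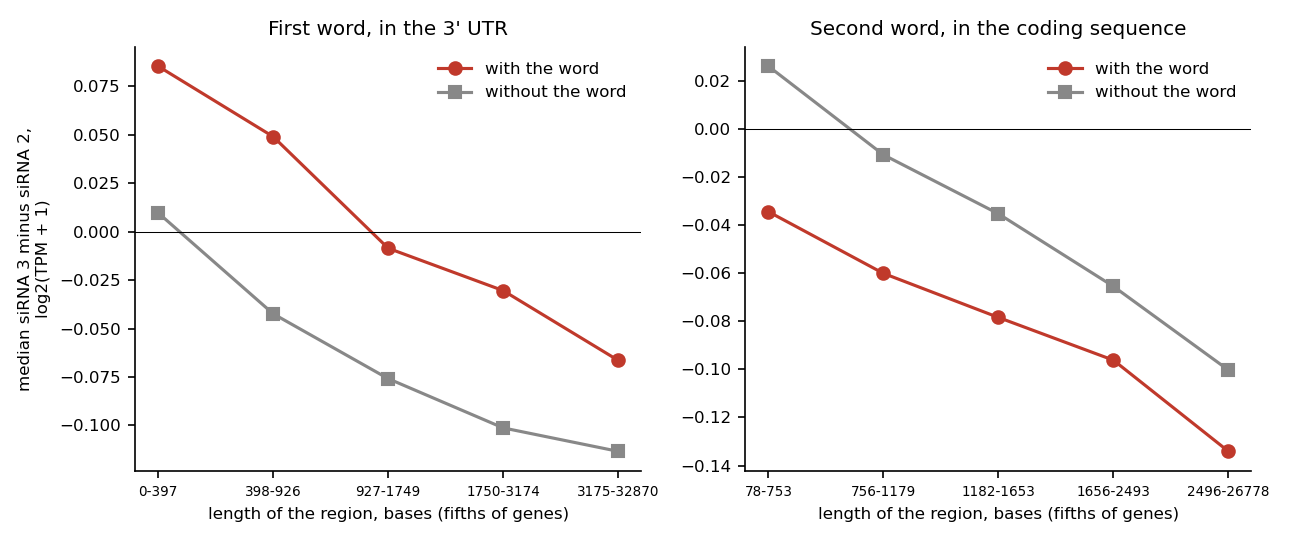
Median of siRNA 3 minus siRNA 2 (vertical axes, log2(TPM + 1), not starting at 0) in 5 equal groups of genes by region length in bases (horizontal axes), for genes with the word (red circles) and without it (grey squares). The first word is GTGAGT in 3' UTRs and the second is CGGAGA in coding sequences. Red lies above grey in all 5 groups on the left and below it in all 5 on the right, and all medians lie within 0.14 of zero.

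The 9 genes that the siRNAs moved to opposite sides of control were GLO1, CDKN1A, COMMD5, DDB2, FDXR and PON2, which were higher with siRNA 3, and TPM4, SPATC1L and FAM32A, which were lower. CDKN1A, the cyclin-dependent kinase inhibitor p21, was 73.1, 71.0, 73.4 and 70.7 TPM in si-NT cells. With siRNA 2 it was 34.1 and 45.0 TPM at 72 h and 47.2 and 45.5 TPM at 144 h, and with siRNA 3 it was 119 and 106 TPM at 72 h and 111 and 145 TPM at 144 h. The 3 groups did not overlap. Against si-NT, CDKN1A changed by -0.74 with siRNA 2 and by 0.72 with siRNA 3 (difference 1.46 ± 0.11 (SE); limma, adjusted p = 0.0016).

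DDB2, a DNA damage recognition protein, was 17.8, 15.9, 10.5 and 12.1 TPM with siRNA 2 and 27.8, 36.6, 21.6 and 22.6 TPM with siRNA 3, around 19.2 to 21.3 TPM in si-NT cells (0.90, adjusted p = 0.0121). All its siRNA 2 libraries lay below those of si-NT and all its siRNA 3 libraries above them. FDXR, a mitochondrial ferredoxin reductase, was 16.6, 16.4, 14.5 and 15.96 TPM with siRNA 2, 33.2, 33.1, 23.2 and 26.1 TPM with siRNA 3, and 17.9 to 21.8 TPM in si-NT cells, again without overlap (0.81, adjusted p = 0.0117). The paraoxonase PON2 was at 78.1% of si-NT with siRNA 2 and 116% with siRNA 3 (0.56). In the other direction, FAM32A was at 115% and 81.5% (-0.49) and SPATC1L at 124% and 85.0% (-0.52). DDB2, FDXR, PON2, FAM32A and SPATC1L were named after their values were seen. The class depended on single libraries. It held 2 or 3 genes without any 1 si-NT library, 8, 7, 3 and 5 without the first and second siRNA 2 library at 72 h and at 144 h, and 3, 1, 4 and 2 without the corresponding siRNA 3 libraries.

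Among genes raised by siRNA 3 only, PLPPR2, a phospholipid phosphatase-related membrane protein, was 35.7, 41.4, 49.5 and 58.0 TPM with siRNA 2 and 67.1, 70.5, 90.0 and 111 TPM with siRNA 3, against 40.5 to 46.7 TPM in si-NT cells. The siRNA 3 libraries were above all others (0.86, limma adjusted p = 0.0117). Both siRNA 2 libraries at 144 h also lay above all si-NT libraries, and the class rests on the mean over both time points. The fatty acyl-CoA synthetase ACSL3 (0.64), TMEM241 (0.81), TSPAN5 (0.60) and PHLDA3, an inhibitor of AKT (0.80), were in the same class, and GLUD1, the mitochondrial glutamate dehydrogenase, was raised by both siRNAs but more by siRNA 3 (0.35 and 1.21 against si-NT). These 5 genes were named after their values were seen.

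Genes raised by siRNA 2 only included TNS4, a focal adhesion protein, and an unnamed long non-coding RNA. TNS4 was 4.67, 9.49, 6.88 and 6.75 TPM with siRNA 2, 2.25, 1.51, 2.44 and 3.10 TPM with siRNA 3 and 1.85 to 2.54 TPM in si-NT cells. Its siRNA 3 libraries overlapped those of si-NT and its siRNA 2 libraries overlapped neither (-1.25, adjusted p = 0.0397). The non-coding RNA ENSG00000256185 was listed at 0 TPM in all 4 si-NT libraries and in 3 of the 4 siRNA 3 libraries, and at 2.77, 1.89, 2.91 and 1.49 TPM with siRNA 2. The interleukin-6 receptor IL6R (-0.61), the adaptor GRB10 (-0.64) and the pseudokinase TRIB1 (-0.72), named after their values were seen, belonged to the same class. TPM4, a tropomyosin of the actin cytoskeleton, was at 148% of si-NT with siRNA 2 and 77.1% with siRNA 3 (-0.91, adjusted p = 0.00925). The histone gene H2BC5 was raised by both, to 260% and 140% of si-NT (-0.85, adjusted p = 0.0174). The small nucleolar RNA SNORA8 had the most negative difference of all called genes (-2.49), with 3.54 to 17.7 TPM with siRNA 2, 0 to 3.85 TPM with siRNA 3 and 0 to 8.40 TPM in si-NT cells.

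Of 23 gene lists examined, 15 had no called member, and over all lists 6 members were called higher and 4 lower with siRNA 3. These 10 were 1.44% of the 693 list members tested, against 0.679% of all genes, in lists that were chosen with earlier results known. Without the first and second siRNA 2 library at 72 h and at 144 h, 8, 6, 1 and 5 members were higher, and without the corresponding siRNA 3 libraries 4, 1, 4 and 3. There were 9 lower without the first siRNA 2 library at 72 h and 1 without any other knockdown library. Genes of DNA replication initiation (23 tested, median 0.02), G2 phase and mitosis (45 tested, median -0.07) and androgen response (36 tested, median -0.05) were among these. Against si-NT, 5 members of replication initiation were called lower with siRNA 3 and 8 with siRNA 2, with medians of -0.50 and -0.54, and for G2 phase and mitosis 22 and 18 were, with medians of -0.57 and -0.49. Of all genes, 7.33% were called lower with siRNA 3 and 8.89% with siRNA 2. Androgen response genes were called in both directions against si-NT, 11 higher and 2 lower with siRNA 3 and 12 higher and 4 lower with siRNA 2, with medians of 0.08 and 0.29, against 10.7% and 16.1% of all genes called higher. CDC6, which loads the replicative helicase, was at 55.6% of si-NT with siRNA 2 and 54.4% with siRNA 3, and its difference between them was -0.07 with an interval of -0.48 to 0.33. The interval was -0.53 to 0.38 for CDT1 and -0.30 to 0.40 for MCM2. The exchange factor VAV3 was at 13.0% and 11.02% of si-NT (-0.17, interval -0.55 to 0.22), and the non-coding RNA PCAT1 at 11.2% and 17.3% (0.25, interval -0.05 to 0.56). None of these differences passed the test, and the intervals leave room for unequal effects of that size. For the pioneer factor FOXA1 the interval was -0.39 to 0.05, and for the kallikrein KLK2, whose libraries scattered from 58.2 to 223 TPM within the knockdown, it was -0.71 to 1.08.

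A few lists held 1 or 2 called members. Of the 26 tested SWI/SNF subunits other than SMARCA4, BCL7B was higher with siRNA 3 (10.4, 12.1, 8.57 and 11.3 TPM with siRNA 2 against 18.6, 20.5, 17.2 and 17.9 TPM with siRNA 3, difference 0.76) and its paralogue BCL7A was lower (14.1, 17.6, 17.9 and 18.95 TPM against 10.9, 9.38, 9.55 and 7.50 TPM, difference -0.82). Neither gene's siRNA libraries overlapped. BCL7B fell with both siRNAs against si-NT, to 43.3% with siRNA 2 and 75.9% with siRNA 3, and BCL7A rose with siRNA 2, to 153%, and stood at 83.3% with siRNA 3 (adjusted p = 0.131 against si-NT). Of 76 ribosomal protein genes only RPS20 was called. The median of that list was 0.15 and 70 of its members had a positive difference, none of which passed. At an unadjusted limma p under 0.05, 25 were higher and 1 lower, against 1022 and 1728 of all 16337 genes. The siRNA libraries did not overlap upwards in 28 members, against 6.23% of all genes, and downwards in 1. Against si-NT, 23 members were called lower with siRNA 2 and 6 with siRNA 3, against 8.89% and 7.33% of all genes. The proteasome subunits PSMC5 (0.54) and PSMA1 (0.39) were called higher among 30 tested, the DNA polymerase delta subunit POLD2 (0.57) among 35 S phase genes, and the protein disulphide isomerase PDIA6 (0.50) among 27 genes of the unfolded protein response. The stress protein NUPR1 was called lower (-0.79) among 35 genes of the ATF4 response, with 449 to 784 TPM with siRNA 2 and 247 to 441 TPM with siRNA 3, against si-NT values from 253 to 700.1 TPM. TNFAIP2 was the 1 called member of 14 NF-kB targets. None of 37 interferon response and RNA sensing genes (median -0.14) and none of 13 genes of the RNA interference machinery (median -0.04) was called, the latter including AGO2, which encodes the slicing Argonaute (-0.24, adjusted p = 0.48). Of the 16 genes the study names, CDKN1A was the 1 called.

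**Figure D4:**
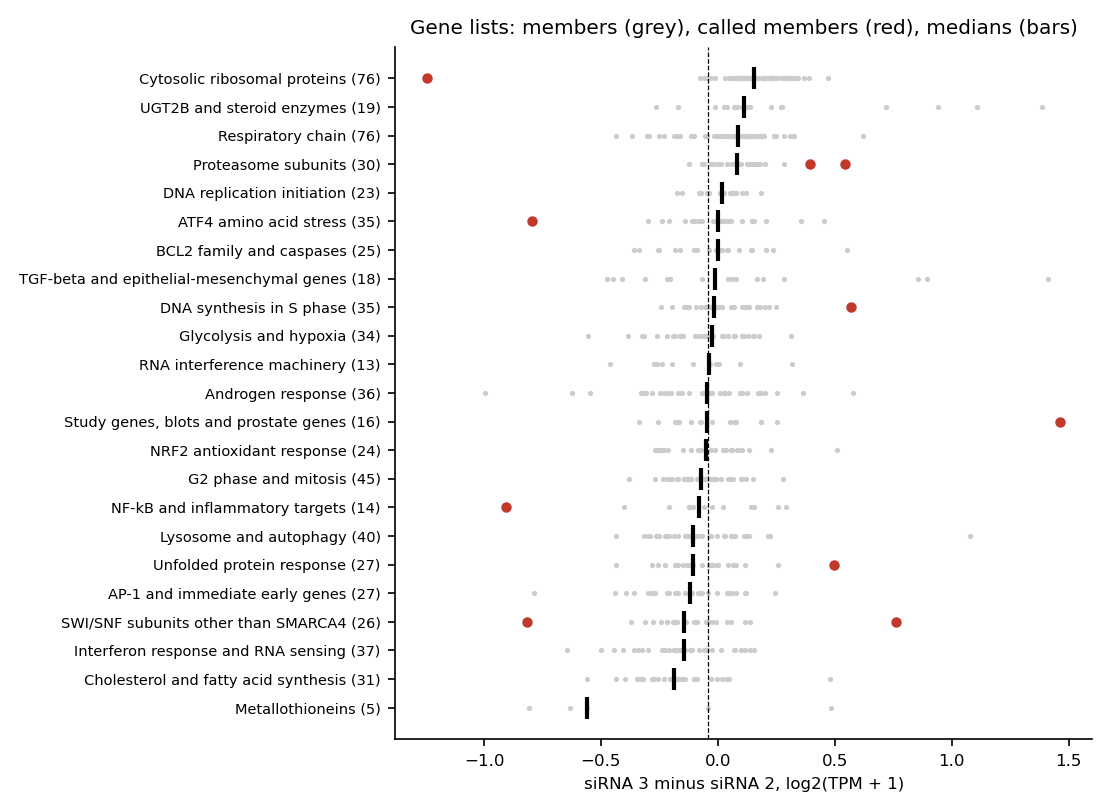
Differences within 23 gene lists. Each dot is siRNA 3 minus siRNA 2 of 1 tested gene (horizontal axis, log2(TPM + 1)), red where the adjusted p was under 0.05 and grey otherwise, with a black bar at the list's median and a dashed line at the median of all tested genes (-0.04). Numbers in brackets are genes tested. No list has more than 2 red dots, the cytosolic ribosomal proteins have the highest median (0.15) with RPS20 as a red dot far to the left, and the 5 metallothioneins have the lowest (-0.56) with no red dot.

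The time points were also compared separately. In the fit over 12 libraries, 23 genes (0.141%) differed at 72 h and 54 (0.331%) at 144 h, and 15 genes were called at both. All 111 genes that differed over both had the same sign at both time points, as did 64.0% of all genes tested. The 111 were chosen on the mean of the time points, so their shared sign adds no support. GLO1 differed by 1.86 at 72 h and 2.00 at 144 h, CDKN1A by 1.50 and 1.43, RPS20 by -1.13 and -1.36. The count at 144 h was 5 to 24 without any 1 of the si-NT, siRNA 3 or 144 h siRNA 2 libraries, and 42 and 41 without those of siRNA 2 at 72 h. Fitted with limma on the 4 siRNA libraries of 1 time point alone, 7 genes were called at 72 h and 0 at 144 h, with 1053 and 1935 at an unadjusted p under 0.05. The count at 72 h was 12 without the second siRNA 3 library and 16 to 25 without any other. The siRNA by time interaction called 9 genes (0.0551%), mostly small RNAs listed at 0 in many libraries. It called 4 or 5 without either si-NT library at 72 h, the second siRNA 2 library at 144 h, the second siRNA 3 library at 72 h or either siRNA 3 library at 144 h, and 7 to 12 without any other. VTRNA1-2, a vault RNA, was listed at 92.9 and 66.5 TPM with siRNA 3 at 72 h and at 0 in the other 10 libraries. SNORD116-6 was listed at 19.3 and 25.1 TPM with siRNA 2 at 144 h and at 0 in the other 10, and SNORD83B at 28.7 and 41.7 TPM with siRNA 3 at 72 h, at 0 in the other 6 knockdown libraries, and at 15.3 and 29.4 TPM with si-NT at 144 h. BOLA2, an iron-sulphur cluster protein, was 2.69 and 2.01 TPM with siRNA 3 at 72 h and 17.9 to 31.1 TPM in the other 10 libraries. It has a near-identical copy, BOLA2B, and reads of the pair could be divided between them, so its values are uncertain.

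With 4 libraries of each siRNA rearranged within time points, the two-sided exact permutation test has 36 arrangements and cannot give a p below 0.0556, the value it gave for each of the 33 called genes chosen by rule. The number of called genes therefore rests on the limma fit, and it was 277 with median-of-ratios size factors, 325 with quantile normalisation and 25 with ERCC scaling, which moved the median of all genes from -0.04 to -0.16.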

How the data were processed

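RNA of 12 LNCaP libraries (si-NT, siRNA 2 and siRNA 3, each with 2 libraries at 72 h and 2 at 144 h) was measured by RNA-seq. According to the methods and labels, the authors trimmed reads (Trim Galore 0.11.2), aligned them to hg19/GRCh37 with STAR 2.4.0j, counted them with featureCounts, normalised to ERCC spike-ins and determined TPM on GENCODE release 19, and the deposited values are TPM with no depth. The 63660 lines held 63568 genes and 92 spike-ins, and no 2 libraries had identical values. The spike-ins are included in each library total.

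Here, log2(TPM + 1) of 16337 genes (a minimum of 1 TPM in no fewer than 2 libraries) was fitted with limma 3.58.1 (R 4.3.3, eBayes with a trend) on siRNA and time over 8 libraries (5 residual and 3.44 prior degrees of freedom). Contrasts within a time point, against si-NT and for the interaction came from 6 groups over 12 libraries. P-values were adjusted by Benjamini-Hochberg over all genes tested and called under 0.05. The fold changes on this scale understate those of low genes. The procedure was tested on simulated data. GENCODE release 44, mapped to GRCh37 and later than the release behind the table, gave symbols, coordinates and transcripts. Words were ranked in 3' UTRs and coding sequences of MANE Select transcripts when held by at least 500 genes (6 bases) or 300 genes (7 bases), with Python 3.11.15, NumPy 2.4.6 and pandas 2.3.3.

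Genes named were SMARCA4 and SMARCA2, the 12 protein-coding or long non-coding genes with the largest differences in each direction among called genes whose libraries did not overlap, the 2 largest called members of each list, the genes the study names, the 5 largest interactions and the 5 largest changes against si-NT in each class of 1 siRNA. The members and lists were chosen with earlier results of these data known. The words were chosen after seeing the data. Alternatives were other scalings, filters, pseudocounts, thresholds, spread estimates, blocks and each library left out. The marker PECAM1 was not analysed here, and 1 gene list, 1 luminal marker, a gene chosen by rule and a sequence window are not reported here.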

Additional observations from a re-analysis of the deposited data

Results flagged for a closer look

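In 106 groups of 4 libraries of 1 siRNA, 5 held a library whose gap to its nearest neighbour was a large part of the group's range (Dixon's ratio). Chance gives about 1 in 20 such groups. The second siRNA 3 library at 144 h had a GYG1 level of 49.0 TPM, against 46.2 to 46.6 TPM in the other 3 (ratio 0.846). The first siRNA 2 library at 144 h had 166 TPM of PSMC5, against 181 to 184 TPM (ratio 0.873). The second siRNA 2 library at 72 h had 26.5 TPM of CASP8, against 15.95 to 17.6 TPM (ratio 0.844). The second siRNA 3 library at 72 h had 9.75 TPM of CASP9, against 11.6 to 11.9 TPM (ratio 0.87). For ENSG00000256185, the first siRNA 3 library at 72 h had 0.80 TPM and the other 3 were listed at 0 (ratio 1.0).

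For 9 genes the difference between the siRNAs at 144 h was unlike that at 72 h in limma's interaction test. The change in the difference, 144 h minus 72 h on log2(TPM + 1), was -6.32 for VTRNA1-2 (adjusted p = 1.64e-05), -5.15 for SNORD83B (0.00121), -4.52 for SNORD116-6 (0.000134), -2.95 for SNRPEP11 (0.0018), -2.19 for SCARNA24 (0.0215), -2.15 for SNORA66 (0.045) and -1.51 for LINC03015 (0.0439). It was 2.08 for ENSG00000251803.1 (0.031) and 2.89 for BOLA2 (0.0177). For the small RNAs VTRNA1-2, SNORD83B, SNORD116-6, SCARNA24 and SNORA66, for SNRPEP11 and for ENSG00000251803.1, the siRNAs differed at 1 time point and the fitted difference was 0 at the other. BOLA2 differed by -2.89 at 72 h and by 0.01 at 144 h. LINC03015 had 0.72 at 72 h and -0.79 at 144 h, neither of which passed on its own.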

How the results depend on the processing

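GLO1, CDKN1A and RPS20 stayed past the threshold in all 20 alternative fits, with differences of 1.78 to 1.99, 1.32 to 1.55 and -1.39 to -1.17. KIFBP, RAB5C, RPN1, GYG1, RCN2, C8orf33 and COMMD5 did so in 19. Genes that passed in far fewer of the 20 included NUPR1 (6), BCL7A (7), FOXP4 (8), TNFAIP2 (8), PLPP2 (9) and RPS27L (9). TNS4 passed in 8 of 19. Of the 33 called genes chosen by rule, none changed sign. Of the 264 values with 1 library left out, 105 no longer passed, and of the 391 values under the other settings, 104 no longer passed. GTGAGT and CGGAGA had rank 1 in 3' UTRs under each of the 14 settings that alter the differences ranked. The other 6 leave these differences as they are. The words were chosen on these same libraries, so keeping the rank adds no support. TPM gives no depth, so counting error sets no stated limit, and 2 libraries per siRNA and time point limit the precision. The causes of the shifts below were not tested.

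Against 72 genes higher and 39 lower, the counts were 174 and 103 with median-of-ratios size factors, 185 and 140 with quantile normalisation, 15 and 10 with ERCC scaling, 44 and 11 with no filter (33048 genes) and 138 and 115 with 12 libraries in 6 groups. A mean of at least 5 TPM gave 84 lower, and eBayes without the trend 21 lower. The means of both time points, 2 against 2, gave 15 and 6, an absolute difference of at least 1 gave 8 and 6, over 1.5 gave 1 and 1, and an adjusted p under 0.01 gave 13 and 2. Over all gene lists, the 6 members called higher became 11 with quantile normalisation, 10 with a mean of at least 5 TPM, and 1 with ERCC scaling and for 2 against 2. The 4 called lower became 8 with quantile normalisation, 7 with median-of-ratios, with a mean of at least 5 TPM and with 12 libraries in 6 groups, 2 without the trend, and 1 with ERCC scaling, with no filter and for 2 against 2. At 72 h, 15 genes were called with ERCC scaling and 7 from its 4 libraries alone, and at 144 h 10 with ERCC scaling, 30 without the trend and 0 from its 4 libraries alone. The interaction gave 3 with a pseudocount of 0.1, 15 with ERCC scaling, 32 with no filter and 3 with a mean of at least 5 TPM.

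The main fit did not pair samples by replicate number, and the labels do not say whether libraries of the same number shared a culture. The correlations of replicate deviations, over genes, ran from -0.229 to 0.0623 between groups of the siRNAs, and from -0.201 to 0.30 where 1 group was si-NT. Such values cannot show that no culture or batch was shared. With the replicate number as a block, 32 genes were higher and 12 lower, 5 list members were higher and 1 lower, 23 genes were called at 144 h and 5 by the interaction. With a block for each pair of a number and a time point, 14 were higher and 1 lower, with 1 list member in each direction.

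The class moved by siRNA 2 only (49) held 113, 128, 9, 16 and 31 genes with median-of-ratios, quantile, ERCC, no filter and no trend. That moved by siRNA 3 only (18) held 55, 64, 8 and 5 with the first 4 of these and 38 with a mean of at least 5 TPM. The class moved by both alike (16) held 46, 58, 0, 7 and 5 with the settings of the first class, and 37 with a mean of at least 5 TPM. That moved in opposite directions (9) held 0 with ERCC scaling, 2 with no filter and 4 without the trend. The rest (19) held 55, 67, 8 and 34 with median-of-ratios, quantile, ERCC and a mean of at least 5 TPM.

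With 1 library left out, genes higher ranged from 13 to 75, genes lower from 1 to 126, list members higher from 1 to 8 and lower from 1 to 9, genes called at 72 h from 12 to 25, at 144 h from 5 to 42 and by the interaction from 4 to 12. The classes ranged from 8 to 81 (siRNA 2 only), 0 to 32 (siRNA 3 only), 0 to 42 (both alike), 1 to 8 (opposite) and 2 to 39 (the rest), and SMARCA4 from -0.27 to -0.04. Differences that changed sign belonged to genes that never passed. CHEK1 was 0.0317 with median-of-ratios and 0.0404 with quantile, and with ERCC scaling SMARCA2 was -0.0954, CDC45 -0.0552, MCM2 -0.0931 and ORC6 -0.0648. With 1 library left out, the ranges were -0.0325 to 0.12 for SMARCA2, -0.17 to 0.41 for KLK2, -0.14 to 0.14 for CHEK1, -0.071 to 0.23 for CDC45, -0.0556 to 0.18 for MCM2, -0.0716 to 0.21 for ORC6, -0.22 to 0.13 for CDT1, -0.22 to 0.10 for CDC6 and -0.22 to 0.0376 for CCNA2.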
